A study of Mus musculus with 360 samples.

Results

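A set of 10 genes tied to cartilage, none of them a collagen, was followed across mouse CD51+;CD200+ cells, namely Lect1, Clec3a, Susd5, Acan, Matn1, Matn3, Matn4, Hapln1, Sorbs2 and 3110079O15Rik. They are 10 of the 24015 genes in the deposited tables, and all 10 were found there. The genes were chosen by name with earlier results of these cells known, so that their levels and the differences between tissues are given as descriptions, without a test. The cells were single cells of untreated wild-type CD-1 mice at pN3, sorted as skeletal stem/progenitor cells, which carry CD51 and CD200 and lack blood and endothelial surface proteins. They came from 3 sutures of the skull, the sagittal (SAG), coronal (COR) and posterior frontal (PF), and from the growth plate (GP) of the tibia. All groups share strain, age and genotype. Of 360 cells, 325 passed a filter of at least 500 genes and 10000 reads, comprising 87 PF cells (34 on plate 1 and 53 on plate 2), 86 SAG cells (30 and 56), 74 COR cells (16 and 58) and 78 GP cells (20 and 58). Cells of many mice were sorted and no label ties a cell to a mouse, so each tissue counts as 1 sample and the 2 plates give its spread. Because each plate holds 1 tissue, plate and tissue cannot be told apart.

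Cartilage matrix is built on a network of collagen II with collagens IX and XI, filled with aggregates in which aggrecan, a very large proteoglycan, is bound to hyaluronan and held there by link protein. Matrilins are adaptors that join collagen fibrils and proteoglycans, and chondromodulin keeps cartilage free of vessels. The genes for these proteins are switched on in chondrocytes under SOX9 together with SOX5 and SOX6, whereas bone-forming cells make a matrix of collagen I. The skull vault forms largely without a cartilage stage, while the tibia grows in length through its growth plate.

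The promoters of 8 of the 10 genes were found in the RefSeq tables for mouse (GRCm38.p6), where Lect1 is listed as Cnmd. Clec3a and 3110079O15Rik were not matched. The 250 bases before the start site are shown for Lect1, Matn1 and Hapln1, because these had high levels in SAG cells, and capitals mark matches to 4 motifs searched on both strands. Lect1 lies at chr14:79662184-79662433 on the minus strand, Matn1 at chr4:130944135-130944384 and Hapln1 at chr13:89540386-89540635, both on the plus strand.
Lect1: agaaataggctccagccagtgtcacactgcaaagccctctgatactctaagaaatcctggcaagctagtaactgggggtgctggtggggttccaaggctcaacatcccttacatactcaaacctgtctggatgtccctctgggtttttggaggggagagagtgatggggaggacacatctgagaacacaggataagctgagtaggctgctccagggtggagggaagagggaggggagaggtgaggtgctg
Matn1: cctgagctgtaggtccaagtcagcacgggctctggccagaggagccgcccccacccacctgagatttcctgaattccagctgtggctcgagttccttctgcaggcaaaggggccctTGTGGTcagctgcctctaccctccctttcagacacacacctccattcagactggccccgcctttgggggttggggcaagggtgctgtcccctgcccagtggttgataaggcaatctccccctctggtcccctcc
Hapln1: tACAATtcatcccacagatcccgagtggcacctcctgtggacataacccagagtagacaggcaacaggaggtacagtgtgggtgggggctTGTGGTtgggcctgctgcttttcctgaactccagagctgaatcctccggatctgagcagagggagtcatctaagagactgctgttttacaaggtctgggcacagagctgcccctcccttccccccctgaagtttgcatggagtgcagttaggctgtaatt
In the 300 bases from 250 before to 50 after the start, the SOX core ACAAT was found in 3 of the 11 promoters of these genes (Hapln1 and 2 of Sorbs2) and in 31% of all 32851 promoters. The SOX core ACAAAG was found in 1 of 11, a promoter of Sorbs2, against 18.7% of all promoters. The RUNX core TGTGGT was found in 3 of 11 (Hapln1, Matn1 and Susd5) against 16.8%, and the TATA box TATAAA in 0 of 11 against 13.6%. In the windows shown, Lect1 held no match, Matn1 held the RUNX core, and Hapln1 held ACAAT and the RUNX core. A match is a run of letters and not a site of binding.

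Levels are given in CPM (counts per 1e+06 reads), summed over the cells of a plate, with reads of the ribosomal RNA precursor Rn45s left out of the total. Rn45s took 86.8% of the reads of SAG plate 2 and 20.2% to 31% on the other plates, and SAG plate 2 had a median of 875 genes per cell against 2112 to 3867 elsewhere. For this reason SAG plate 1 and SAG plate 2 are kept apart. The remaining reads numbered 3237921 to 28799387 per plate. A single SAG plate 1 cell was described in another label as a PF cell. It held 466 reads of the 10 genes, and without it the summed log2 ratios of SAG plate 1 given next were 3.29, 4.31 and 2.82.

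Summed, the 10 genes were highest in SAG cells. The summed level was 7471 CPM on SAG plate 1 and 15623 CPM on SAG plate 2. It was 680 and 1156 CPM on the GP plates, 335 and 881 CPM on the PF plates, and 109 and 412 CPM on the COR plates. Both SAG plates therefore lay above all 6 other plates. On SAG plate 1 the log2 ratio of the sum was 3.27 to PF, 4.29 to COR and 2.80 to GP, and on SAG plate 2 it was 4.33, 5.35 and 3.86. Without plate 2 of the other tissue these ratios were higher, at 4.47, 6.09 and 3.46 for SAG plate 1 and 5.54, 7.15 and 4.52 for SAG plate 2. Ratios are log2 of (CPM + 1) over (CPM + 1), which understates changes of genes near 0.

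**Figure D1:**
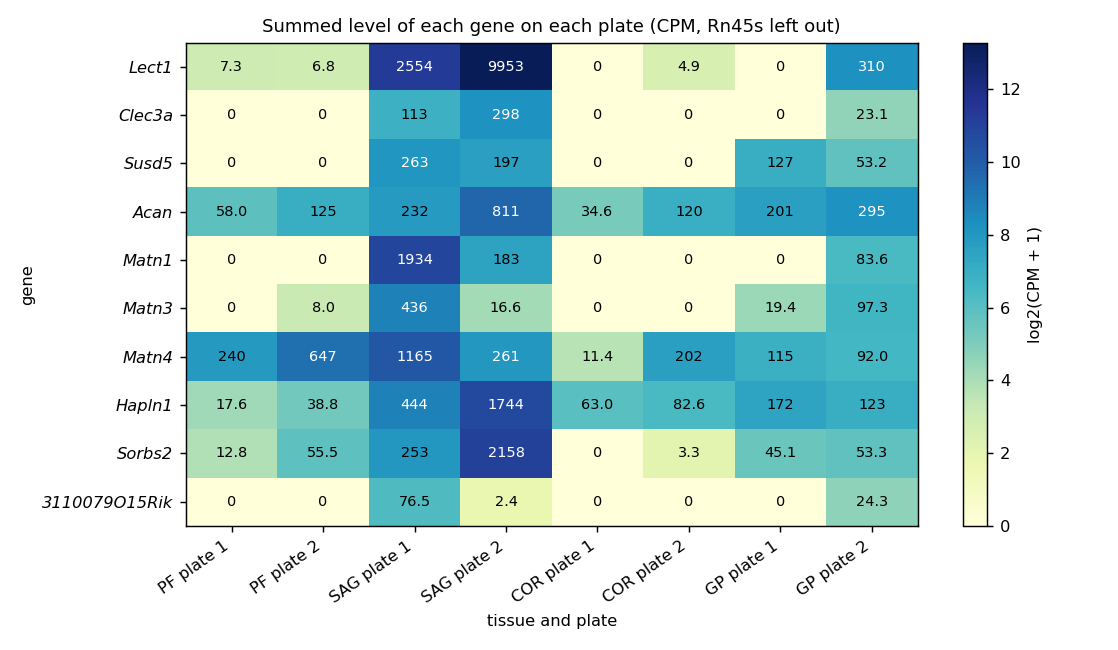
Summed level of each gene (rows) on each plate (columns), with CPM printed in the cells and log2(CPM + 1) as colour. Lect1 is at 2554 and 9953 CPM on the SAG plates and at most 310.1 CPM elsewhere, and Acan, Matn4 and Hapln1 are above 0 on all 8 plates.

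A gene was called higher where its (CPM + 1) was at least 2-fold higher on every pair of plates, among 11613 genes with at least 10 CPM on at least 1 plate. Each of the 10 genes reached this floor on a SAG plate and on at least 1 plate of another tissue. For SAG plate 1, 8 of the 10 genes were called above PF (11.8% of all genes), 9 above COR (11.5%) and 9 above GP (11.3%). On SAG plate 2, 8 were called above PF (23%), 9 above COR (23.6%) and 7 above GP (23%). Acan was called above PF and COR on SAG plate 2 and not on SAG plate 1. SAG plate 1 was above SAG plate 2 for 4 genes (46.8% of all genes), and SAG plate 2 was above SAG plate 1 for 5 (27%). GP was above PF for Susd5, Matn3 and Hapln1 (4.94%), GP was above COR for Susd5, Matn3 and Sorbs2 (4.18%), and PF was above COR for Sorbs2 (2.26%). Leaving out the top cell of a gene from 1 plate at a time, an alternative chosen after the data were seen, ended 6 of these calls and added 8 others. The calls lost were Susd5 and 3110079O15Rik on SAG plate 1 above GP, Matn1 and Matn4 on SAG plate 2 above GP, Matn3 in GP above PF, and Sorbs2 in PF above COR. Since the genes were selected on these contrasts, nothing is read from the counts. The median log2 ratio of the 10 genes from SAG plate 1 was 6.08 to PF, 6.56 to COR and 2.32 to GP, beside -0.04, -0.03 and 0 for all genes tested. From SAG plate 2 it was 5.55, 5.97 and 1.55, beside -1.21, -1.13 and -1.18. With genes at 0 set to a floor of 3 counts over the tissue, the medians to PF and COR were 7.31 and 9.43 for SAG plate 1 and 5.59 and 8.50 for SAG plate 2. That floor covers counting error only.

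Lect1 (chr14:80037497-80061977, minus strand, in mm9, the build of the files) encodes chondromodulin, the inhibitor of vessel growth in cartilage. Its level was 2554 CPM on SAG plate 1 (95% Poisson interval 2516 to 2592) and 9953 CPM on SAG plate 2 (9892 to 10014). It was 7.27 and 6.81 CPM on the PF plates, 0 and 4.86 CPM on the COR plates, and 0 and 310.1 CPM on the GP plates. The SAG plates did not overlap with the other 6, and the log2 ratio to PF was 8.34 on plate 1 and 10.30 on plate 2. Reads were seen in 21 of 30 cells of SAG plate 1 (70%, exact binomial interval 50.6 to 85.3%) and 41 of 56 cells of SAG plate 2 (73.2%, 59.7 to 84.2%). Elsewhere they were seen in 3 PF, 4 COR and 5 GP cells. In cells with a read, the median was 288 reads on SAG plate 1 and 2030 reads on SAG plate 2, and 2 of the 4 COR cells held at least 10 reads. After thinning to 100000 reads other than Rn45s, the expected share of cells with a Lect1 read was 72% and 72.7% on the SAG plates, over the 25 and 55 cells deep enough. All intervals here reflect counting error alone, as a read is no independent molecule and a cell no independent animal.

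Clec3a (chr8:116941986-116949746, plus strand) encodes a C-type lectin of cartilage. It was at 113 CPM on SAG plate 1, 298 CPM on SAG plate 2 and 23.1 CPM on GP plate 2. On the other 5 plates it had 0 reads, so that both SAG plates exceeded every other plate. The 0 reads in 87 PF cells allow up to 0.0990 CPM by counting error alone and up to 3.45% of cells with a read. Against that floor of 3 counts, the fold of SAG plate 1 over PF was 1145. This is no lower bound, since a single cell can hold many reads, such as the 544 of 1 GP cell. Clec3a was read in 9 of 30 and 15 of 56 SAG cells, all of which also had Lect1 reads. On GP plate 2 all 544 reads came from 1 cell.

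The aggregate-forming genes Acan and Hapln1 were read in every tissue. Acan (chr7:86198369-86259985, plus strand), which encodes the core protein of aggrecan, was at 58 and 125 CPM in PF, 34.6 and 119.6 CPM in COR, 201 and 295 CPM in GP, and 232 and 811 CPM on SAG plates 1 and 2. SAG plate 1 thus fell between the 2 GP plates, and only SAG plate 2 was above all others, a direction that turned against GP (log2 ratio 1.54 to -0.85) when Rn45s was counted in the total. A read of Acan was found in 40.2% of PF, 47.3% of COR and 65.4% of GP cells, and in 53.3% (34.3 to 71.7%) and 69.6% (55.9 to 81.2%) of the cells of the SAG plates. Of the 10 genes it was the one read in the largest share of GP cells.

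Hapln1 (chr13:89680241-89751437, plus strand) encodes the link protein that fastens aggrecan to hyaluronan. It was at 17.6 and 38.8 CPM in PF, 63 and 82.6 CPM in COR, 172 and 123 CPM in GP, and 444 and 1744 CPM in SAG. The order PF, COR, GP, SAG held without overlap between the plates of neighbouring tissues. It rested in part on 1 cell of COR plate 1, without which that plate stood at 18.2 CPM, between the PF plates. Reads were found in 14.9% of PF, 31.1% of COR and 30.8% of GP cells and in 66.7% and 62.5% of cells on the SAG plates, and the shares of COR and GP lay within each other's intervals (20.8 to 42.9% and 20.8 to 42.2%).

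The matrilins differed from each other. Matn1 (chr4:130500300-130511390, plus strand), the matrilin named after cartilage, was at 1934 CPM on SAG plate 1, 183 CPM on SAG plate 2 and 83.6 CPM on GP plate 2, with 0 reads on the 5 other plates. It was read in few cells, 7 of 30 and 6 of 56 in SAG and 3 of 78 in GP. On SAG plate 1, 2 cells held 7300 and 4944 of the 13293 reads, or 92.1%, and without the first of them the level was 934 CPM. Against the floor of 3 counts in PF, the fold was 19532 on SAG plate 1 and 1845 on SAG plate 2. These are no lower bounds, since the floor covers counting error only and the reads came in few cells with many reads each. The log2 ratio of SAG plate 2 to GP was 1.39 and turned to -0.96 with Rn45s counted in the total.

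Matn3 (chr12:8954735-8978834, plus strand), a matrilin of growing cartilage, was at 436 CPM on SAG plate 1 and 16.6 CPM on SAG plate 2. It was at 19.4 and 97.3 CPM on the GP plates, 0 and 8.0 CPM in PF and 0 in COR. SAG plate 2 therefore lay below both GP plates, with a log2 ratio of -2.26 to GP, although its counting interval (14.2 to 19.3 CPM) overlapped that of GP plate 1 (15.7 to 23.7 CPM), whereas SAG plate 1 lay above them at 2.37. Without its top cell for Matn3, SAG plate 1 stood at 207 CPM and SAG plate 2 at 4.73 CPM. Matn1 and Matn3 were each read in 7 cells of SAG plate 1, of which 2 had both. On SAG plate 2, 6 cells had Matn1, 3 had Matn3 and 2 had both. In GP the counts were 3, 7 and 2.

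Matn4 (chr2:164215129-164230660, minus strand), a matrilin found in many tissues, was the most evenly spread of the 3 between tissues. It was at 239.7 and 647 CPM in PF, 11.4 and 202 CPM in COR, 115 and 92 CPM in GP, and 1165 and 261 CPM on SAG plates 1 and 2. Only SAG plate 1 lay above both PF plates. The PF plates lay above both COR and both GP plates, with a log2 ratio of PF to COR of 1.63. Matn4 was read in 24 of 30 cells of SAG plate 1 (80%, 61.4 to 92.3%), 17 of 56 of SAG plate 2 (30.4%, 18.8 to 44.1%), and, in the other tissues, in 47.1% of PF (36.3 to 58.1%), 16.2% of COR (8.67 to 26.6%) and 33.3% of GP cells (23.1 to 44.9%). It overlaps Rbpjl on the opposite strand, and how strand was used in counting is not given in the sources used here.

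Of the other 3 genes, Susd5 (chr9:113966472-114007851, plus strand), whose protein has a sushi domain and is not an established matrix protein, was at 263 and 197 CPM on SAG plates 1 and 2 and at 127 and 53.2 CPM in GP, with 0 reads on the 4 plates of PF and COR. With Rn45s counted in the total, SAG plate 2 lay below GP. Without the top cell of each plate the level was 173 and 109.8 CPM in SAG and 77.9 and 24.9 CPM in GP. Susd5 was read in 14 of 30 and 9 of 56 SAG cells and in 14 of 78 GP cells, and it was the one gene of the 10 that both GP plates held and no PF or COR plate did. For 3110079O15Rik (chr1:89366839-89372034, plus strand), which RefSeq lists as Snorc, a small proteoglycan of cartilage cells, the level was 76.5 CPM on SAG plate 1, 2.42 CPM on SAG plate 2 and 24.3 CPM on GP plate 2, and 0 on the other 5 plates. It was read in 17 of 30 cells of SAG plate 1, with a median of 6 reads in those cells, and in 6 of 56 of SAG plate 2, where no cell reached 10 reads. Without the top cell SAG plate 1 stood at 43.6 CPM.

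Sorbs2 (chr8:46593148-46913259, plus strand) encodes an adaptor of the cytoskeleton and not a matrix protein. It was at 253 and 2158 CPM on SAG plates 1 and 2, 12.8 and 55.5 CPM in PF, 0 and 3.26 CPM in COR, and 45.1 and 53.3 CPM in GP. Both SAG plates lay above the other 6, and COR was lowest, with reads in 2 of 74 cells. It was read in 60% (40.6 to 77.3%) and 58.9% (45 to 71.9%) of cells on the SAG plates, against 10.3% in PF and 19.2% in GP. Without its top cell PF plate 1 stood at 3.41 CPM, near COR plate 2. Sorbs2 overlaps 4 annotated RNA genes, 3 of them on the opposite strand.

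**Figure D2:**
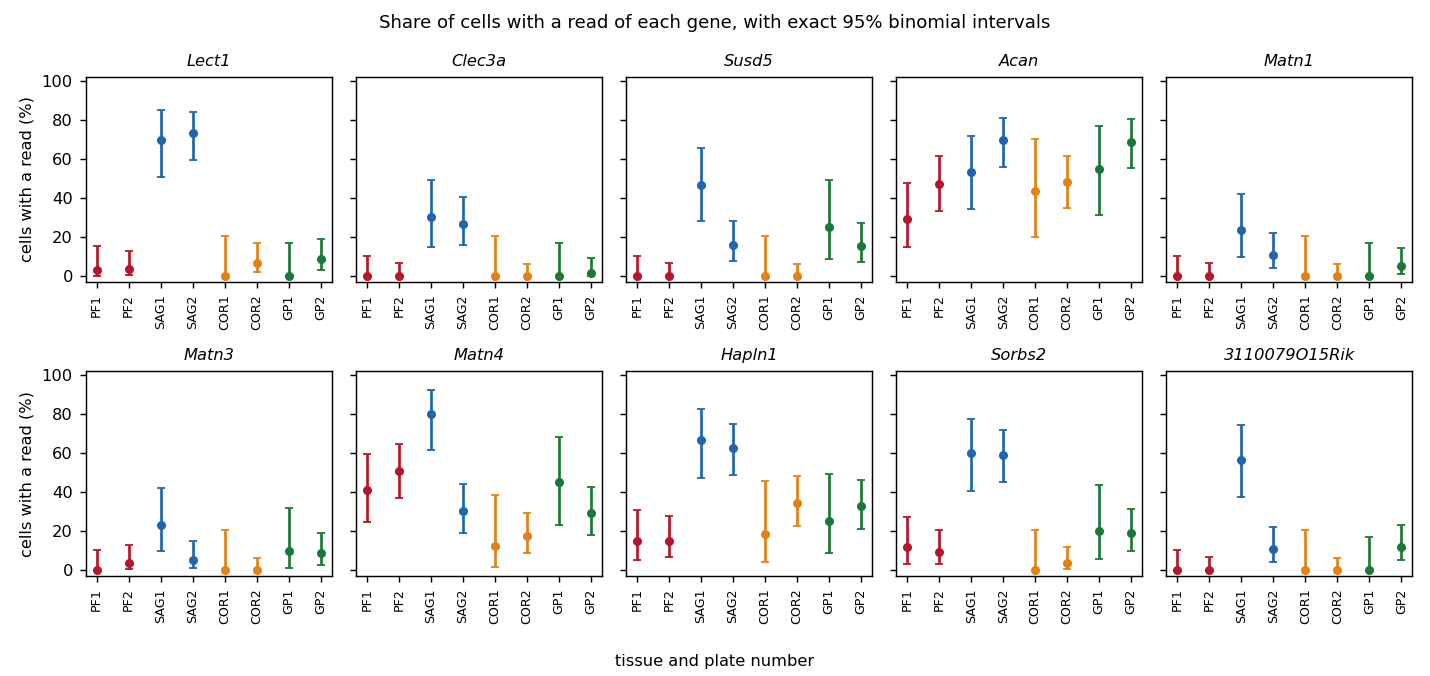
Share of cells with at least 1 read of each gene (y axis, %) on each plate (x axis), with exact 95% binomial intervals that cover counting error only. Lect1 (70% and 73.2%) and Sorbs2 (60% and 58.9%) have like shares on the 2 SAG plates, whereas Matn4 (80% and 30.4%) and 3110079O15Rik (56.7% and 10.7%) do not.

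The SAG plates differed in the makeup of these reads. Lect1 took 34.2% of the summed reads on SAG plate 1, Matn1 25.9% and Matn4 15.6%. On SAG plate 2, Lect1 took 63.7%, Sorbs2 13.8% and Hapln1 11.2%. The log2 ratio of SAG plate 1 to SAG plate 2 ran from 4.63 for Matn3, 4.50 for 3110079O15Rik, 3.4 for Matn1 and 2.15 for Matn4, through 0.41 for Susd5, to -1.39 for Clec3a, -1.80 for Acan, -1.96 for Lect1, -1.97 for Hapln1 and -3.09 for Sorbs2. All genes tested had a median of 0.67. With Rn45s counted in the total, the direction of Lect1, Clec3a, Acan and Hapln1 turned between the SAG plates, with ratios of 0.55, 1.10, 0.70 and 0.54. That scaling also turned SAG plate 2 below GP for Susd5, Acan, Matn1 and Matn4, below PF for Matn3 and below COR for Matn4. The part of the ribosomal RNA share in these differences was not tested.

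Per length of the longest annotated coding transcript, Lect1 had the highest level on both SAG plates, at 1782 and 6945 CPM per kb. For SAG plate 1 it was followed by Matn1 (966), Matn4 (506), Clec3a (192, interval 179 to 206), 3110079O15Rik (166, 152 to 180), Matn3 (145, 139.6 to 150.03), Hapln1 (87.8), Susd5 (67.8), Sorbs2 (40) and Acan (31.6). Neighbours whose intervals met were Clec3a with 3110079O15Rik and the latter with Matn3. On SAG plate 2 the order was Clec3a (505), Hapln1 (345, 339.9 to 350.04), Sorbs2 (341, 337 to 346), Matn4 (113), Acan (110.2), Matn1 (91.3), Susd5 (50.8), Matn3 (5.52) and 3110079O15Rik (5.23), in which Hapln1 met Sorbs2, Matn4 met Acan and Matn3 met 3110079O15Rik. In PF and in COR as a whole Matn4 was the highest per length, at 246 and 79.2 CPM per kb, whereas on COR plate 1 alone it was Hapln1 (12.5 against 4.96 for Matn4). In GP the highest was Lect1 at 179 CPM per kb, of which 1 cell of plate 2 held 90.3% of the reads. Without that cell Lect1 was at 17.9 CPM per kb, below Matn4 (41.3), Acan (35.5), 3110079O15Rik (23.9), Matn1 (21.1) and Hapln1 (21.1), and on GP plate 1, where Lect1 had 0 reads, Matn4 was highest at 50.1.

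More of the 10 genes were read per cell in SAG than in the other tissues. For 45 of 45 pairs of genes on SAG plate 1, more cells held both than the product of their shares gives. This was so for 44 of 45 pairs on SAG plate 2 and also for 39 of 45 in GP. Among pairs with both genes read, it held for 8 of 15 in PF and 6 of 10 in COR. The part of cell depth in these counts was not tested. The median cell of SAG plate 1 had 5.5 of the 10 genes and that of SAG plate 2 had 4, against 2 in GP and 1 in PF and COR. At least 3 of the genes were read in 23 of 30 cells of SAG plate 1 (76.7%, 57.7 to 90.1%) and 37 of 56 of SAG plate 2 (66.1%, 52.2 to 78.2%). In GP this held for 21 of 78 cells (26.9%, 17.5 to 38.2%). It held for 11 of 87 cells in PF (12.6%, 6.48 to 21.5%) and 5 of 74 in COR (6.76%, 2.23 to 15.1%). No PF or COR cell had more than 4, and 15 cells of each SAG plate and 3 GP cells had 6 or more. All 10 genes were read in 2 cells of SAG plate 1 and 1 cell of GP plate 2. Every cell of SAG plate 1 with Lect1, Clec3a, Susd5, Matn1 or Matn3 reads also had Matn4 reads.

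**Figure D3:**
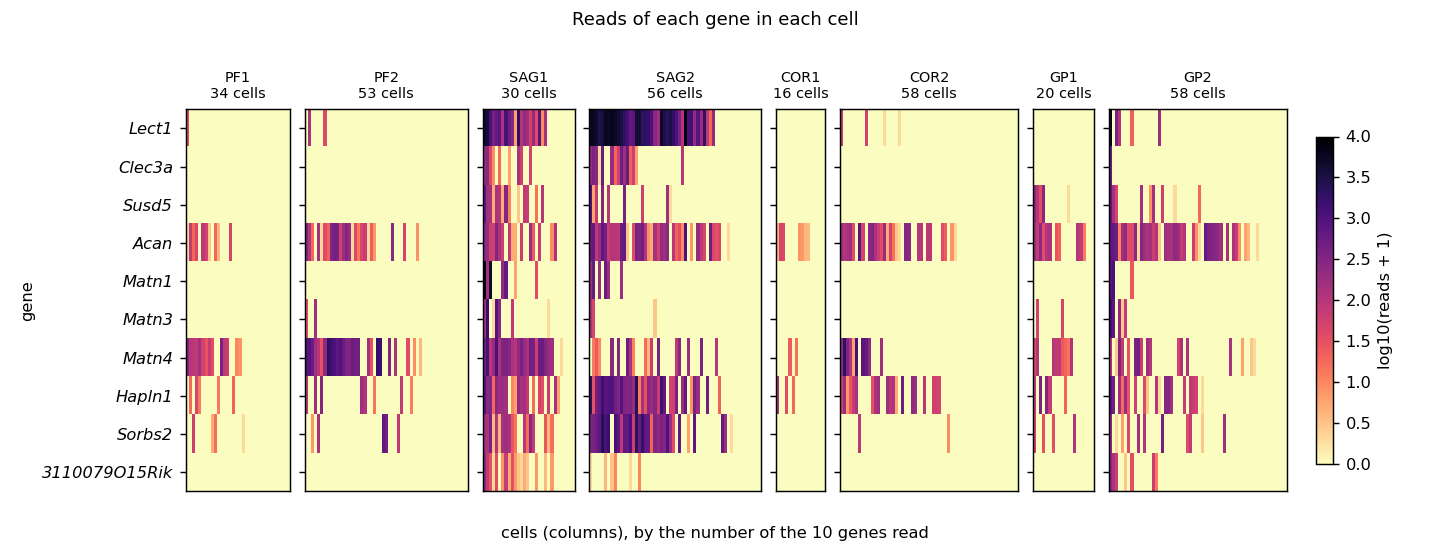
Reads of each gene (rows) in each of the 325 cells (columns), as log10(reads + 1), with cells of a plate ordered by how many of the 10 genes they held. Blocks of several genes are seen in the SAG plates and in a few cells of GP plate 2, and the PF and COR cells hold mostly Acan, Matn4 and Hapln1.

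**Figure D4:**
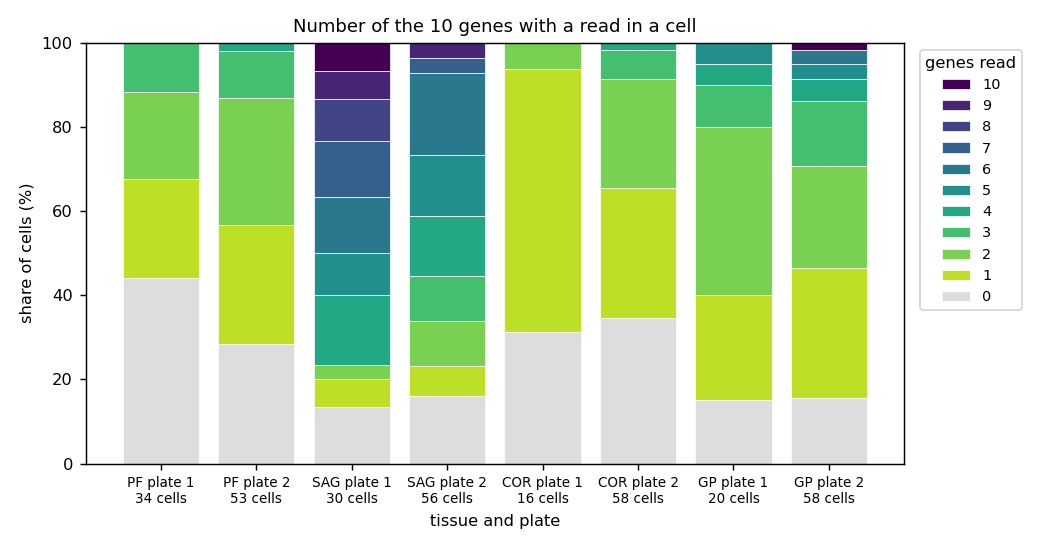
Share of cells (y axis, %) by the number of the 10 genes with a read (colours), for each plate. Cells with 5 or more genes are seen in the SAG and GP plates only.

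On SAG plate 1 the cells fell apart by this number. No cell there had exactly 3, and the 7 cells with fewer than 3 had a summed level of at most 633 CPM, against at least 1973 CPM in the 23 others. Col2a1, the main collagen of cartilage, was read in 22 of the 23 cells and in 0 of the 7, and the same counts held for Col9a1 and Col9a2. The chondrocyte list (8 genes of collagens II, IX and XI with Sox9 and Comp) was at 27390 CPM in the 23 cells and 414 CPM in the 4 cells with none of the genes. The osteoblast list (9 genes, among them Col1a1, Ibsp and Spp1) was at 12989 CPM against 357027 CPM, of which 1 of the 4 cells held 89.1% of the reads. The value of the other 3 was 89239 CPM, and 2 of the 4 cells stood at 93.2 and 8.80 CPM. Without its top cell the chondrocyte list of the 23 cells was at 17317 CPM. Ibsp, a protein of mineralizing bone, was read in 1 of the 23 cells and in 2 of the 4. Depth was similar, with medians of 183802 and 163805 reads other than Rn45s in the cells with at least 3 and with none. The chondrocyte list exceeded the osteoblast list in 11 of the 23 cells and in 2 of the 4, and the osteoblast list was the higher one in the rest.

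SAG plate 2 showed a less sharp division. Col2a1 was read in 31 of the 37 cells with at least 3 genes and in 3 of the 19 others. The chondrocyte list was at 16822 CPM in the 37 cells and 1013 CPM in the 9 with none, and the osteoblast list at 9193 against 90379 CPM. Ibsp was read in 1 of the 37 cells and in 3 of the 9, and the chondrocyte list was the higher one in 21 of the 37 and in 1 of the 9. Sox9, the master factor of chondrocytes, was read in 33 of the 37 cells at 4445 CPM, in 9 of the 10 cells with 1 or 2 of the genes at 2085 CPM, and in 3 of the 9 with none at 498 CPM. Col10a1, the collagen of hypertrophic chondrocytes, had no reads in the 23 and 37 cells of the SAG plates, and was read in 8 of the 21 GP cells with at least 3 genes. The hypertrophic list as a whole (Col10a1, Ihh, Pth1r and Mmp13) did have reads in these SAG cells. It was at 7533 CPM in the 23 cells of SAG plate 1 and 472 CPM in the 4 with none. A single cell held 44.8% of the list's reads on that plate. Over the whole of SAG plate 1 the list was at 5777 CPM, of which Mmp13 made up 5670 CPM, with Col10a1 and Ihh at 0. On SAG plate 2 the list was at 746 CPM in the 37 cells, all from Mmp13, and at 0 in the 9 with none. Over all SAG cells, 53 of the 56 with Col2a1 reads had at least 3 of the genes, as did 7 of the 30 without.

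**Figure D5:**
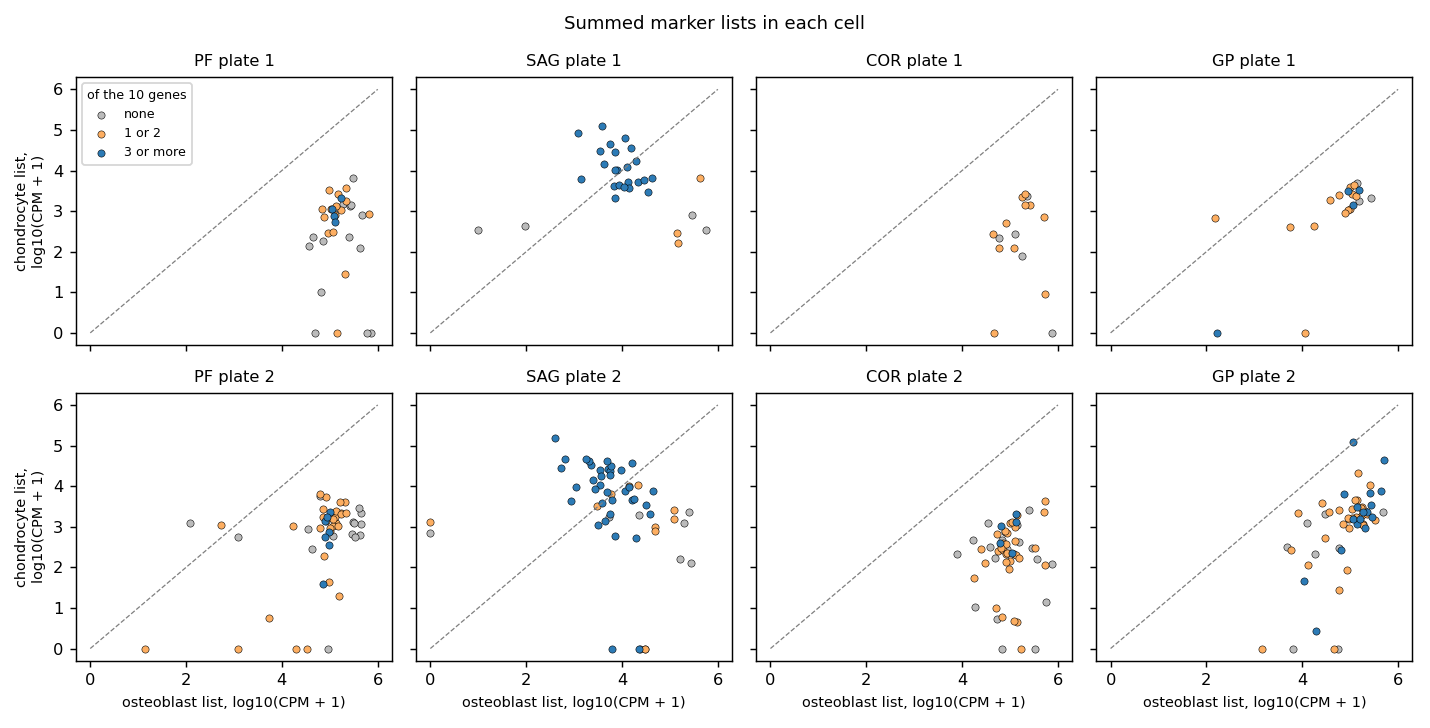
Each cell by the summed osteoblast list (x axis) and chondrocyte list (y axis), both as log10(CPM + 1), with colour for the number of the 10 genes read and a dashed line of equality. Among cells with 3 or more of the genes, 11 of 23 on SAG plate 1 and 21 of 37 on SAG plate 2 lie above the line, against 1 of 17 on GP plate 2 and 0 in PF, COR and GP plate 1.

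Markers of vessel, blood, muscle and nerve cells were near 0 in SAG cells. The endothelial list was at 2.62 and 25.6 CPM on the SAG plates, each from 1 cell, with Pecam1 and Cdh5 at 0. The haematopoietic list was at 2.18 and 0 CPM, with Ptprc at 0. The muscle list was at 0, and the neural or glial list was at 8.58 and 0.774 CPM, each from 1 cell. On the other 6 plates the neural or glial list ran from 0.169 to 396 CPM, and the muscle list was at most 0.338 CPM. The 3 osteoclast genes summed to 7759 and 1997 CPM on the SAG plates against 453 to 1101 CPM elsewhere. Without the cell that held 48.8% of these reads, SAG plate 1 stood at 4134 CPM. Within SAG plate 1 they were at 10661 CPM in cells with at least 3 of the genes (5710 CPM without the top cell) and at 433 CPM in cells with none. Mmp9 accounted for most of this, at 10035 CPM in 19 of the 23 cells and 0.985 CPM in the 4 cells, while Acp5 was read in 3 of the 23. Within SAG plate 2 the osteoclast genes were at 1778 CPM in cells with at least 3 of the genes, 4707 CPM in cells with 1 or 2 (942 CPM without the top cell) and 0.634 CPM in cells with none. The fibroblast list was lower in SAG than elsewhere (9689 and 5561 CPM against 17543 to 37838 CPM), the tenocyte list was at 111 and 55.5 CPM against 109 to 3102 CPM, and the pericyte or smooth muscle list at 61.5 and 270.3 CPM against 211 to 1934 CPM, where 1 cell held 94.9% of the highest value. The part of these markers in the result was not tested.

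In GP, a tissue that holds cartilage, the summed level was below that of both SAG plates, although Acan was slightly higher in GP than on SAG plate 1 (log2 ratio -0.26 from SAG plate 1 to GP), and Matn3 and 3110079O15Rik were higher in GP than on SAG plate 2 (-2.26 and -2.63). Much of the GP level came from 1 cell of plate 2. This cell had all 10 genes and 12047 of the 27194 reads of its plate, or 44.3%. Its chondrocyte list stood at 120840 CPM and its osteoblast list at 117238 CPM. Without it, Lect1 fell from 310.1 to 31.2 CPM on GP plate 2, Clec3a to 0, Matn3 to 45.4 CPM and 3110079O15Rik to 13.5 CPM, while Acan stayed at 275 CPM. The sum then was 668 CPM, close to the 680 CPM of GP plate 1. On GP plate 1, Lect1, Clec3a, Matn1 and 3110079O15Rik had 0 reads in 20 cells, which allows a share of up to 15% of cells with a read. In GP the 21 cells with at least 3 genes were deeper than the 12 with none, with medians of 456926 and 137309 reads, and their part in the number of genes was not tested. The chondrocyte list was at 13950 CPM in the former and 1351 CPM in the latter, and at 4102 CPM in the former without the top cell. The osteoblast list was at 177628 and 176161 CPM, and at 78599 CPM in the latter without its top cell.

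In PF and COR few of the genes gave most of the reads. Matn4 took 73.3% of the summed reads in PF and Acan 14.4%. The COR plates differed, with Hapln1 at 57.8%, Acan at 31.7% and Matn4 at 10.48% of the reads on plate 1, and Matn4 at 49%, Acan at 29% and Hapln1 at 20% on plate 2. Clec3a, Susd5, Matn1 and 3110079O15Rik had no read in any PF or COR cell. In PF, 26 of the 35 Acan cells also had Matn4 reads. Cells of PF with at least 3 of the genes had chondrocyte markers near those of other PF cells (1043 CPM, against 873 CPM in cells with none). Col2a1 was read in 3 of these 11 cells and in 1 of the 30 with none. In COR the 5 cells with at least 3 of the genes had no Col2a1, Col11a2 or Comp reads. Col9a1 and Col9a3 were each read in 2 of the 5, against 0 and 2 of the 25 COR cells with none. The chondrocyte list was at 1082 CPM in the 5 and 562 CPM in the 25.

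Other genes of cartilage were counted by lists. Of 8 cartilage collagens, 5 were called higher on SAG plate 1 than in PF (Col2a1, Col9a1, Col9a2, Col9a3 and Col11a2), and 6 on SAG plate 2, with 0 lower. Col2a1 was at 9413 and 7214 CPM on SAG plates 1 and 2, and Col9a3 at 4730 and 103 CPM. The median log2 ratio of this list to PF was 3.31 and 2.49. Among 18 other cartilage matrix genes, 6 were higher and 2 lower on SAG plate 1 than in PF, and 7 higher and 5 lower on SAG plate 2. Against GP, 5 of the 18 were higher and 6 lower on SAG plate 1 (median log2 ratio -0.28). On SAG plate 2, 3 were higher and 9 lower than in GP (median -2.01). Of the 8 cartilage collagens, 5 on SAG plate 1 and 3 on SAG plate 2 were higher than in GP, with 0 lower. Their medians to GP were 2.37 and 0.27. Of all genes tested, 11.8% were called higher and 11.8% lower on SAG plate 1 than in PF, and 23% higher and 39.8% lower on SAG plate 2. Against GP the shares were 11.3% higher and 13.1% lower on SAG plate 1, and 23% and 41.9% on SAG plate 2. Among the 18, Fmod, a small proteoglycan of collagen fibrils, was at 4510 and 1783 CPM on the SAG plates and 3326 and 2642 CPM in PF. Mgp, the inhibitor of calcification, was at 2939 and 9.29 CPM on the SAG plates, and Comp at 726 and 57.7 CPM there and at 582 and 1893 CPM in GP. Of 9 relatives of the 10 genes that were tested, Matn2 was the 1 called higher on SAG plate 1, at 1499 CPM, and 3 were lower, among them Vcan, the versican of loose tissue, at 14.7 CPM. Tnmd, the tendon relative of Lect1, was highest in GP at 2927 and 1913 CPM and at 77.7 and 2.32 CPM in SAG.

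The enzymes of chondroitin sulphate and hyaluronan synthesis, which make the sugar chains of aggrecan, had 4 higher and 2 lower of 15 tested on SAG plate 1 against PF, and 4 higher and 4 lower on SAG plate 2, with medians of 0.24 and 0.40. The 4 of 15 higher on SAG plate 2 lay near the 23% of all genes called higher there, and 39.8% of all genes were called lower. On SAG plate 1, 11.8% of all genes were called higher and 11.8% lower. Ugdh, which makes the sugar precursor of both chains, was at 295 and 544 CPM on the SAG plates and 203 and 332 CPM in PF. The 11 genes of aggrecan and hyaluronan breakdown and binding had 1 higher and 3 lower on SAG plate 1 and 0 higher and 4 lower on SAG plate 2, with medians of -0.41 and -3.03. The 4 of 11 called lower on SAG plate 2 lay near the 39.8% of all genes called lower there. All genes had medians of -0.04 and -1.21 to PF on SAG plates 1 and 2. Mmp13 was at 5670 and 545 CPM on the SAG plates and 8169 and 727 CPM in PF. Of 8 cartilage transcription factors tested, 3 were higher on SAG plate 1 than in PF (Sox9, Sox5 and Trps1) and 2 lower, and on SAG plate 2, 4 were higher and 1 lower. Beside these stand the shares of all genes, 11.8% higher and 11.8% lower on SAG plate 1, and 23% and 39.8% on SAG plate 2. Sox9 was at 124 and 3448 CPM on the SAG plates against 15.9 and 48.2 CPM in PF. The comparisons of SAG with PF, COR and GP share the SAG cells.

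The genes whose levels ran most like the mean log2(CPM + 1) of the 10 genes over the 8 plates were sought among 10430 genes. Col2a1 had the highest Pearson r (0.974), followed by 6430573F11Rik (0.973), Zfp36 (0.968), Tmem2 (0.957), Atf2, Luc7l, C430049B03Rik, Fos (0.945), Wwp2 and Zfp385c. The 8 points are sums over the same cells for all genes, and r is given as a description. Among genes read in at least 5 cells, those read most in step with cells of at least 3 genes on SAG plate 1 were Col2a1, Col9a1, Col9a2, Matn2 (23 of 23 cells against 1 of 7) and Marcksl1 (21 against 0). On SAG plate 2 they were Col2a1, Ier2 (25 of 37 against 1 of 19), Fn1 (35 against 9), Ets2 (27 against 3) and Scara3 (30 against 5). Col2a1 was the 1 gene in both lists of 5.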

How the data were processed

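Full-length single-cell RNA-seq counts of 360 cells were used as deposited by the authors, in 8 tables of whole-number reads per gene and cell, 1 for each plate, with no normalization. Per the labels, the reads were aligned to mm9 with STAR 2.5.3a and counted with HTSeq, and Seurat 2.3.0 and R 3.4.4 were used downstream. Whether counting used strand is not given in the sources used here. There are no molecular identifiers, so PCR copies count as reads.

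Cells with at least 500 genes and 10000 reads, Rn45s included, were kept, which left 325 and removed 35. No doublet caller was run, since cells were sorted singly into wells. Reads were summed per plate and tissue and divided by the reads other than Rn45s (Python 3.11.15, pandas 2.3.3, scipy 1.17.1). With 1 sample per tissue, nothing was tested. Summed reads carry exact Poisson and shares exact Clopper-Pearson 95% intervals, and a count of 0 is given the limit of 3 counts. Calls need 2-fold on every plate pair with a pseudocount of 1 CPM. The rule was also run on simulated plates with known changes, drawn from a common profile with counting error only. Those plates held no variation between cells or plates, so they cannot show how often such variation alone gives a call.

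The genes and lists were chosen with earlier results of these data known. The text names the 10 genes, from each list up to 4 genes with the highest CPM on any plate, the 10 genes most correlated with their mean over the plates, and the 5 genes per SAG plate with the highest phi coefficient with cells of at least 3 of the genes. Genes listed as called are named for completeness and were chosen after their values were seen. Alternatives were Rn45s in the total, TMM factors (edgeR 4.0.16, R 4.3.3), other cell filters, equal weight per cell, the top cell of each plate left out, a pseudocount of 10 CPM, each plate left out, thinning to 100000 reads and another read or fold minimum. Gene positions are from the GENCODE annotation of the mm9 assembly, and promoters from RefSeq.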

Additional observations from a re-analysis of the deposited data

Results flagged for a closer look

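Reads of the 10 genes were also present in cells that the filter removed, which enter no comparison. In the 8 removed cells of SAG plate 2 there were 10989 such reads, among 10095118 reads in all, more than the 3 counts that a count of 0 allows. Lect1 had 7851 of them in 4 cells, Hapln1 1502 in 3 cells, Sorbs2 696 in 4 cells, Clec3a 483 in 2 cells and Acan 454 in 3 cells. In the 7 removed cells of GP plate 2 there were 17 reads, 15 of 3110079O15Rik in 1 cell and 2 of Matn4 in 2 cells. The removed cells of the other plates had no more than 1 read of the 10 genes.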

How the results depend on the processing

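The summed log2 ratios of SAG to the other tissues kept their direction under every alternative run, and 78 of 90 alternative values for the 14 results lay within the spread between plates, the interval of the share or 1.5 times the count. Some of the 78 could not differ. The cell with conflicting labels enters no value without SAG plate 1, and all 10 genes pass the floor on level. The spread between plates was itself taken from the values with a plate left out. With Rn45s counted in the total, the ratio of SAG plate 2 fell to 1.87 to PF, 2.88 to COR and 1.47 to GP, as its construction implies for a plate in which Rn45s took most reads. With the top cell of each plate left out, the ratio of SAG plate 2 to GP was 4.51. Leaving out a plate of the other tissue gave 3.08 to 4.47 (PF), 4.18 to 6.09 (COR) and 2.69 to 3.46 (GP) for SAG plate 1, and 4.15 to 5.54, 5.24 to 7.15 and 3.76 to 4.52 for SAG plate 2. With at least 10 reads of a gene required, the share of cells with any of the genes was 54.1% in COR and 74.4% in GP, against 66.2% and 84.6%. The stricter cell filter left 0 cells of SAG plate 2, so it gave no value there. Calls on SAG plate 1 at 4-fold were 8, 9 and 6 of 10 above PF, COR and GP, against 8, 9 and 9, and with the top cell of each gene left out of every plate, a choice made after seeing the data, they were 8, 10 and 9. No paired analysis was possible because no test was run and plate numbers tie no plate of one tissue to a plate of another. The number of cells limits the shares most on the plates with few cells, where 0 of 16 COR cells allows a share of up to 18.75%.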
